A study of Mus musculus with 7 samples.

Results

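The enzymes that conjugate foreign and endogenous small molecules were followed through mouse colon development as 47 genes, 20 cytosolic glutathione transferases (Gst), 3 microsomal glutathione transferases (Mgst), 11 glycosyltransferases of the Ugt superfamily and 13 sulfotransferases (Sult). They were chosen by symbol alone out of 18194 measured genes. Every gene whose name in the platform annotation begins with one of these family names followed by a number was taken. By symbol, the class called cytosolic also counts Gstk1, of the kappa class, an enzyme of mitochondria and peroxisomes. Colon of untreated inbred C57BL/6 mice was sampled daily from embryonic day E13.5 to E18.5 (6 arrays) and at 8 weeks of age, called adult here, which makes 7 stages with 1 Affymetrix Mouse Genome 430 2.0 array each. How many animals went into each array is not given in the sources used here. All values are log2 intensities normalized by the authors with RMA, which summarises the probes of a set, and a gene with several probe sets is given as their median. Since stages were not replicated, error was taken from how far the 6 embryonic arrays lay from a straight line through embryonic day (4 residual degrees of freedom), and the adult array was assumed to vary by as much.

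Conjugation joins a large water-soluble group to a lipophilic compound so that it can be exported and excreted. Glutathione transferases attach glutathione to reactive electrophiles, the microsomal forms being membrane proteins related to the enzymes of leukotriene synthesis. UDP-glucuronosyltransferases attach glucuronic acid to bilirubin, steroids, bile acids, phenols and drugs, and cytosolic sulfotransferases attach sulfate from the donor PAPS to phenols, catecholamines, thyroid hormones, estrogens and sterols. In the gut these enzymes sit mainly in the epithelium, which meets dietary and bacterial compounds from the lumen and passes the conjugates on to ABC transporters.

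Changes before birth were called from the slope in limma, with a Benjamini-Hochberg adjusted p under 0.05 over all 18194 genes. For the adult, the array had to differ from the level fitted at E18.5 by 1 or more (log2) as well as pass the same threshold. Along the embryonic line 18 of the 47 genes (38.3%) rose, against 9.12% of all genes, and 1 (Sult5a1) fell, against 10.4% of all genes. In the adult 8 genes (17.0%) were higher, against 4.23% of all genes, and 0 were lower, against 3.26%. Without adjustment 18 genes were higher and 2 lower in the adult at p under 0.05, the lower ones being Ugt2b36 and Sult5a1. These counts need no minimum difference, and the share of all genes under this looser rule was not computed. By the adjusted test with eBayes in trend and robust settings, the count of lower genes was also 0. Only 4 genes, Gstm3, Gstt3, Mgst2 and Sult1a1, passed both tests, 14 rose before birth without a called adult difference, 4 (Gsta4, Gstt1, Sult1c2 and Sult2b1) were called in the adult alone, and 24 passed neither test. Whether a gene that passed only 1 of the tests differed between the embryonic and adult changes was not itself tested. The median gene of the family was 0.23 higher at E18.5 than at E13.5 on the log2 scale, against −0.01 over all genes, and 0.33 higher in the adult over E18.5, against 0.04 over all genes.

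**Figure D1:**
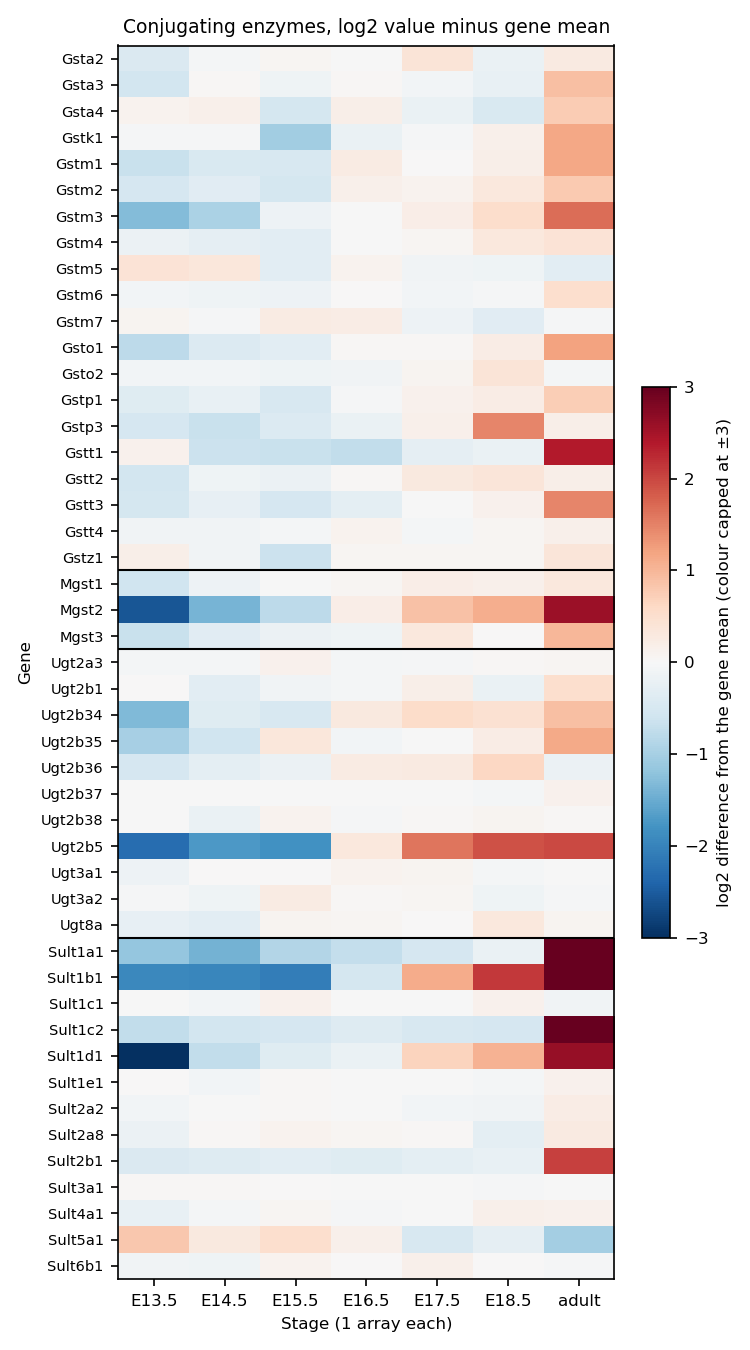
Log2 value of each of the 47 genes minus its own mean over the 7 arrays (colour, capped at 3 in either direction), by gene (rows, grouped by enzyme class) and stage (columns, 1 array each). The adult column is the highest of the 7 for 30 genes, and Sult1b1, Sult1d1, Mgst2 and Ugt2b5 change within the embryonic columns.

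The adult array held the highest of the 7 values for 30 of the 47 genes (63.8%), against 33.4% of all genes, and E18.5 did for 7. The lowest value was at E13.5 for 20 genes. The shares of all genes for E18.5 and E13.5 were not computed, so neither count is read as particular to these enzymes. By class, 8 of 20 cytosolic glutathione transferases, 3 of 3 microsomal ones, 4 of 11 Ugt genes and 3 of 13 sulfotransferases rose. In the same order 4, 1, 0 and 3 of them were higher in the adult. Over all genes 9.12% rose and 4.23% were higher in the adult, so 0 of 11 Ugt genes is near the share of all genes. Of the 47 genes, 15 lay among the dimmest 25% of all genes by mean (a mean log2 value under 5.12), 7 of them sulfotransferases, 6 Ugt genes and 2 glutathione transferases. No such gene other than Ugt8a and Sult1c2 passed a test, and near the floor of an array a difference is compressed.

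Marker genes of epithelium, and of several other cell types, rose over the same days. Of 17 measured epithelial genes 16 rose and 4 were higher in the adult, and of 9 absorptive colonocyte genes 7 rose and 7 were higher. Over all genes 9.12% rose and 4.23% were higher in the adult. Rises were also called in 9 of 9 goblet cell genes, 6 of 8 smooth muscle genes and 3 of 7 neuron and glia genes. Of 9 mesenchyme genes 3 rose and 3 fell, of 6 endothelial genes 0 rose, and of 5 red blood cell genes 3 fell. In the adult 5 mesenchyme genes and 4 neuron and glia genes were lower, against 3.26% of all genes. After centring each gene on its mean, the median of the epithelial genes was −1.06 on the E13.5 array, 0.57 on the E18.5 array and 1.13 on the adult array, and that of the colonocyte genes was −1.30, 0.91 and 3.48. In whole tissue, more cells of a type and more RNA per cell cannot be told apart, and the part of these markers in the rise of the conjugating enzymes was not tested. Of 11 liver genes 4 rose (Apoa1, Ttr, Fga and Cps1), 0 were higher in the adult and 1 (Cps1) was lower. Alb, which encodes albumin, stayed between 6.24 and 6.83 on all arrays, but some other liver genes moved by more. Apoa1 had 6.91, 6.90, 6.71, 6.99, 10.57, 11.26 and 6.61. Afp, which passed neither test, had 7.92, 8.14, 7.43, 6.31, 8.02, 9.51 and 5.09. Ambp was at 7.63 at E13.5 and 6.41 at E18.5 and did not pass. Of 8 leukocyte genes 6 and of 6 pancreatic acinar genes 3 were higher on the adult array, whose Gapdh signal from 5′ probes minus that from 3′ probes, lower where RNA is shortened, was −2.41, against −1.59 to −1.29 before birth. The part of these differences in the adult results was not tested either.

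Sulfotransferases held the largest adult differences of the 4 classes and, with Ugt2b5 and Mgst2, the steepest slopes. Sult1b1 and Sult1d1, neighbours on chromosome 5, rose before birth by about 4 log2 units each, and Sult1a1, Sult1c2 and Sult2b1 were high in the adult alone or nearly so. Sult1e1, the estrogen sulfotransferase and the next gene after Sult1d1, had no change that passed. As a description, the 300 bases around a RefSeq start are given (250 before and 50 from the start on, GRCm38.p6). All are on the minus strand and written 5′ to 3′ along the gene. They are those of Sult1b1 (chr5:87536173-87536472), Sult1d1 (chr5:87568957-87569256), Sult1e1 (chr5:87591562-87591861) and Sult1a1 (chr7:126676369-126676668). For Sult1b1 the window shown is the one that held a match. Capitals mark GTTAAT, a motif of Hnf1 factors, CAAAGT or CAAAGTCCA, motifs of Hnf4 factors, and TTTATG, a motif of Cdx factors.
Sult1b1: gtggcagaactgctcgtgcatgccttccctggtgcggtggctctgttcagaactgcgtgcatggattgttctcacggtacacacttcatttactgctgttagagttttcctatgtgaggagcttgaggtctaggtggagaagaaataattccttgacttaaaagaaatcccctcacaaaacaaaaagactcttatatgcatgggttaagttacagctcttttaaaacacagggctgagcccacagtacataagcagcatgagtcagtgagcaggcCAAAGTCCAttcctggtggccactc
Sult1d1: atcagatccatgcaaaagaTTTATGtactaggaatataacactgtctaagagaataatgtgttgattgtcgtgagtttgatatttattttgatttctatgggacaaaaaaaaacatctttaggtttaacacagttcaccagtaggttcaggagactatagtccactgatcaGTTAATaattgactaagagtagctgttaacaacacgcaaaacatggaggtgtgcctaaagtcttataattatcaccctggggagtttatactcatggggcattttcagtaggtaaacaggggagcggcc
Sult1e1: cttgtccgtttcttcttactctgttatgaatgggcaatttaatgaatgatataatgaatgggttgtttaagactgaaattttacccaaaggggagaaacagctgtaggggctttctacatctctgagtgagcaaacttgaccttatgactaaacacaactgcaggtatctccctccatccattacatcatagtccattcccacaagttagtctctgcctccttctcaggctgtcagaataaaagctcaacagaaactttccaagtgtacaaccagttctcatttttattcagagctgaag
Sult1a1: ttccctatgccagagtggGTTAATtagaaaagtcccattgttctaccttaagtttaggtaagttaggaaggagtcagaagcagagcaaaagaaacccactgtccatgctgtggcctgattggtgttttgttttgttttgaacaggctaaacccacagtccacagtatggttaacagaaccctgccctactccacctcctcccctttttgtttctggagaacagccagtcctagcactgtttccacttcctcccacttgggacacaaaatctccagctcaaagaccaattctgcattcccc
Sult1b1 held CAAAGTCCA at bases 26 to 34 from the start. Sult1d1 held GTTAAT at positions −79 to −74 and TTTATG at −231 to −226, Sult1a1 held GTTAAT at −232 to −227, and the Sult1e1 window held none of these letters on either strand. A second RefSeq start of Sult1b1 (chr5:87538146-87538445) also held none. Over the 54 windows of the 42 enzyme genes that have one, GTTAAT stood in 9.26%, against 7.1% of all 32851 windows, CAAAGT in 24.1% against 14.4%, the longer CAAAGTCCA, which contains CAAAGT, in 1.85% against 0.475%, and TTTATG in 9.26% against 11.9%. TGACNNNGC, the letters of the antioxidant response element bound by Nrf2, stood in 7.41% against 12.4%, GCGTG, the core bound by the aryl hydrocarbon receptor, in 22.2% against 32.4%, and TATAAA in 10 windows of these genes and in 13.6% of all, each searched on both strands. A match describes letters and is neither a binding site nor a cause of the level of a gene.

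Sult1b1, which sulfates phenols and thyroid hormones, had log2 values of 5.78, 5.76, 5.63, 7.19, 8.84, 9.83 and 10.98 from E13.5 to the adult. It was level on the first 3 arrays and then climbed with every stage. Its slope was 0.89 per day (standard error 0.14, adjusted p = 0.0074), it lay 4.05 (log2) higher at E18.5 than at E13.5, and its adult difference of 1.59 did not pass (standard error 0.73, adjusted p = 0.20). Sult1d1, a catecholamine sulfotransferase of rodents, had 5.51, 7.77, 8.15, 8.30, 9.17, 9.56 and 11.11. Most of its embryonic change lay between the E13.5 array and all later ones, with 2.26 between E14.5 and E13.5. Its slope was 0.70 (standard error 0.11, adjusted p = 0.0074), it was 16.6-fold higher at E18.5 than at E13.5, and its adult difference of 1.28 did not pass (standard error 0.58, adjusted p = 0.20). Without the E13.5 array, its lowest, this difference was 1.60 and passed (adjusted p = 0.0052), and without the E18.5 array the slope of Sult1b1 did not pass (0.75, adjusted p = 0.068). Both probe sets of Sult1d1 rose, with slopes of 0.78 for 1418138_at and 0.63 for 1448973_at. Their adult differences were unlike, at 0.50 for 1418138_at and 2.05 for 1448973_at.

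Sult1a1, the main sulfotransferase of simple phenols, had 5.20, 4.93, 5.48, 5.64, 5.86, 6.15 and 11.22. The adult value stood apart from all 6 embryonic ones, at 33.5 times the E18.5 value, the largest such ratio among the 47 genes. Its adult difference was 5.12 (standard error 0.19, adjusted p = 2.3e-05), and the small embryonic slope of 0.22 also passed (standard error 0.04, adjusted p = 0.0084), though not without the E18.5 array (adjusted p = 0.069). Sult1c2 had 4.14, 4.34, 4.38, 4.50, 4.39, 4.37 and 8.05, so that the embryonic arrays lay between 4.14 and 4.50 and the adult array above them all (adult difference 3.60, standard error 0.13, adjusted p = 2e-05). Sult2b1, which sulfates cholesterol and other sterols, had 4.75, 4.80, 4.87, 4.82, 4.89, 4.96 and 7.24 and was also higher in the adult (adult difference 2.30, standard error 0.09, adjusted p = 2.6e-05). Neither gene had a called slope.

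Sult5a1 ran the other way. It had 8.45, 7.92, 8.14, 7.78, 7.14, 7.36 and 6.60, with the top value at E13.5 and the bottom one in the adult, with a slope of −0.23 per day (standard error 0.05, adjusted p = 0.016). It was the only one of the 47 genes that fell, and the call was lost without E13.5 (adjusted p = 0.11) or without E18.5 (adjusted p = 0.051). Its adult difference of −0.62 did not pass (adjusted p = 0.13). Sult1e1 had 4.26, 4.16, 4.27, 4.23, 4.23, 4.19 and 4.36, a range of 0.20. Sult1c1, Sult2a2, Sult2a8, Sult3a1, Sult4a1 and Sult6b1 also passed neither test, with ranges between 0.09 for Sult3a1 and 0.56 for Sult2a8, and of these genes only Sult4a1 lay above the dimmest 25% of genes.

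**Figure D2:**
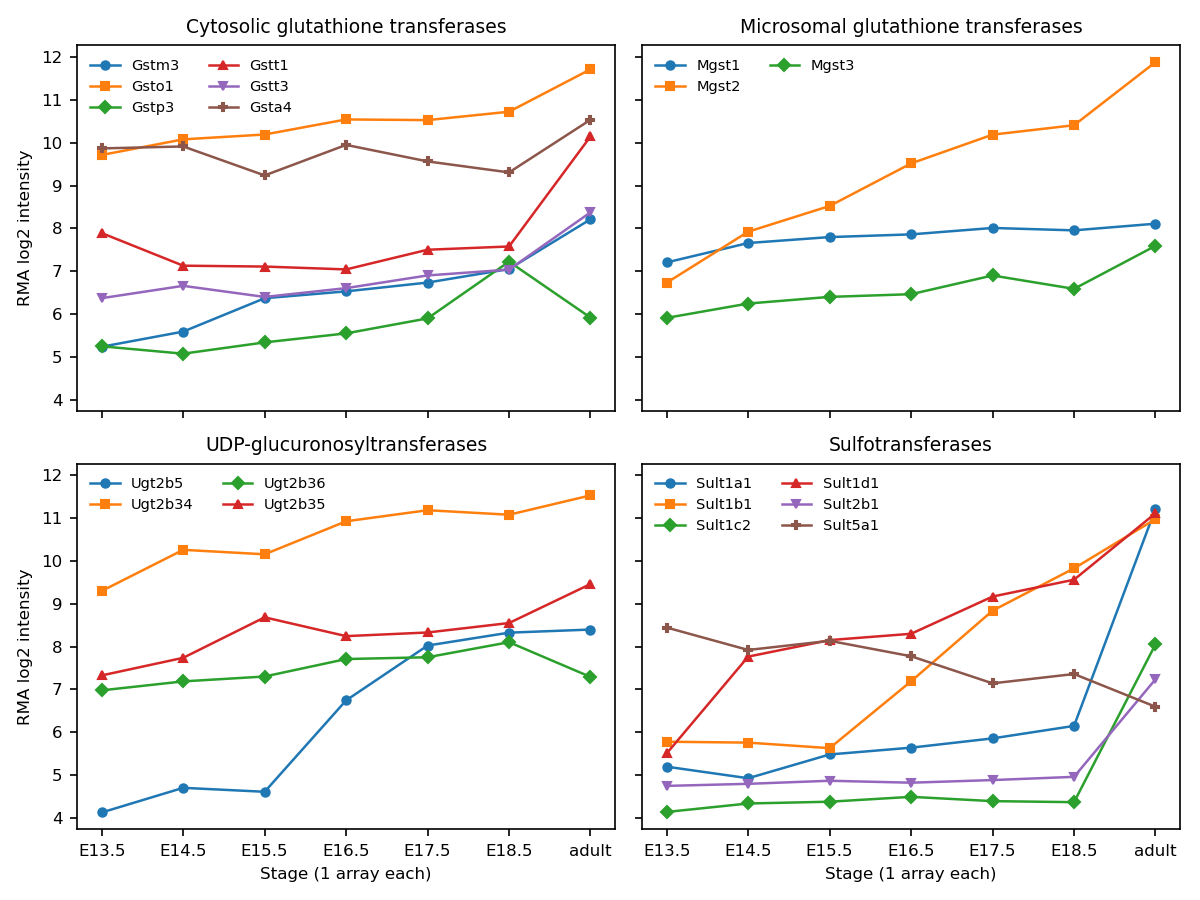
RMA log2 intensity (vertical axis) against stage (horizontal axis, 1 array each) for 19 genes in the 4 enzyme classes. Sult1b1, Sult1d1, Mgst2 and Ugt2b5 climb through the embryonic arrays, whereas Sult1a1, Sult1c2, Sult2b1 and Gstt1 lie apart on the adult array.

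Of the 11 Ugt genes measured one by one, 4 rose before birth, against 9.12% of all genes. In the adult 0 were called, where 4.23% of all genes were higher and 3.26% lower, so 0 is near these shares. Among the 11 genes, 6 lay in the dimmest 25% of all genes. Ugt2b5, which like the other Ugt2b enzymes conjugates steroids and phenols, had 4.13, 4.71, 4.61, 6.75, 8.03, 8.33 and 8.40. Its values fall into an early group up to E15.5 and a late group from E17.5 on, with E16.5 between them. Its slope of 0.94 per day was the steepest of the 47 genes (standard error 0.11, adjusted p = 0.0029), its log2 value was 4.20 higher at E18.5 than at E13.5, and the adult differed from the fitted level by −0.05 (standard error 0.58, adjusted p = 0.97). Ugt2b34 had 9.30, 10.26, 10.15, 10.92, 11.18, 11.08 and 11.53 and rose with a slope of 0.36 (standard error 0.06, adjusted p = 0.0084, or 0.054 without E13.5). Ugt2b36 had 6.98, 7.19, 7.30, 7.71, 7.75, 8.10 and 7.29, a climb on every embryonic day (slope 0.22, standard error 0.02, adjusted p = 0.002). Its adult value lay near that of E15.5, with an adult difference of −0.76 (standard error 0.12, adjusted p = 0.0053) that was smaller than the minimum size of 1. Ugt2b35 had 7.33, 7.74, 8.68, 8.24, 8.33, 8.55 and 9.46 and did not pass (slope 0.21, standard error 0.07, adjusted p = 0.079).

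These genes lie next to each other. By the gene order in RefSeq, Ugt2b34, Ugt2b1, Ugt2b35, Ugt2b36, Ugt2b5, Ugt2b37, Ugt2a3 and Ugt2b38 follow one another on chromosome 5, and after Ugt2a1 and Ugt2a2 come Sult1b1, Sult1d1 and Sult1e1. Within this run Ugt2b34, Ugt2b36, Ugt2b5, Sult1b1 and Sult1d1 rose, and Ugt2b1, Ugt2b35, Ugt2b37, Ugt2a3, Ugt2b38 and Sult1e1 did not pass. All of the latter except Ugt2b35 lay among the dimmest 25% of genes, where a difference is compressed. Ugt2b37, next to Ugt2b5, was at 4.12 on the first 5 arrays, 4.06 at E18.5 and 4.25 in the adult, and Ugt2a3 stayed between 3.93 and 4.12. Whether probes of these related genes also bound transcripts of a neighbour was not tested.

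Ugt8a, the galactosyltransferase that makes the galactolipids of myelin, was measured by 2 probe sets that differed in sign. The first had 4.88, 4.88, 5.16, 5.59, 5.49, 6.07 and 5.73 and rose (slope 0.24, adjusted p = 0.0084 over all 45101 probe sets, of which 6.02% rose), and the second had a slope of −0.02 that did not pass. The gene median had a slope of 0.11 (adjusted p = 0.037), a call that was lost in 7 of 10 other settings. Of 7 measured markers of enteric neurons and glia, 3 rose (Uchl1, Stmn2 and S100b), and their part in the Ugt8a values was not tested. Ugt3a1 and Ugt3a2, which in human use other sugar donors than glucuronic acid, had ranges of 0.26 and 0.38 and passed neither test.

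The Ugt1a genes, which include the bilirubin enzyme Ugt1a1, share their last exons and were measured by 3 probe sets that each list 8 of them, so they are not among the 47 genes and no single Ugt1a gene can be named. All 3 rose, in a fit over all probe sets that was added after the data were seen. Probe set 1424783_a_at had 6.20, 7.23, 7.86, 8.12, 8.80, 9.26 and 11.40, a climb at every stage (slope 0.58, standard error 0.04, adjusted p = 0.0018), and its adult difference of 2.04 passed (adjusted p = 0.0018), as it did for 3.42% of all probe sets. Probe set 1426260_a_at had 7.51, 8.66, 9.64, 9.80, 10.57, 10.81 and 12.28 (slope 0.64, standard error 0.07, adjusted p = 0.0033), and its adult difference of 1.19 did not pass (adjusted p = 0.067). Probe set 1426261_s_at had 5.82, 7.09, 7.41, 7.69, 8.25, 8.47 and 10.33 (slope 0.49, standard error 0.06, adjusted p = 0.005) with an adult difference of 1.66 that passed (adjusted p = 0.015). The probe set for Ugt2a1 and Ugt2a2, enzymes of the olfactory epithelium, stayed between 5.27 and 5.89 and did not pass.

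**Figure D3:**
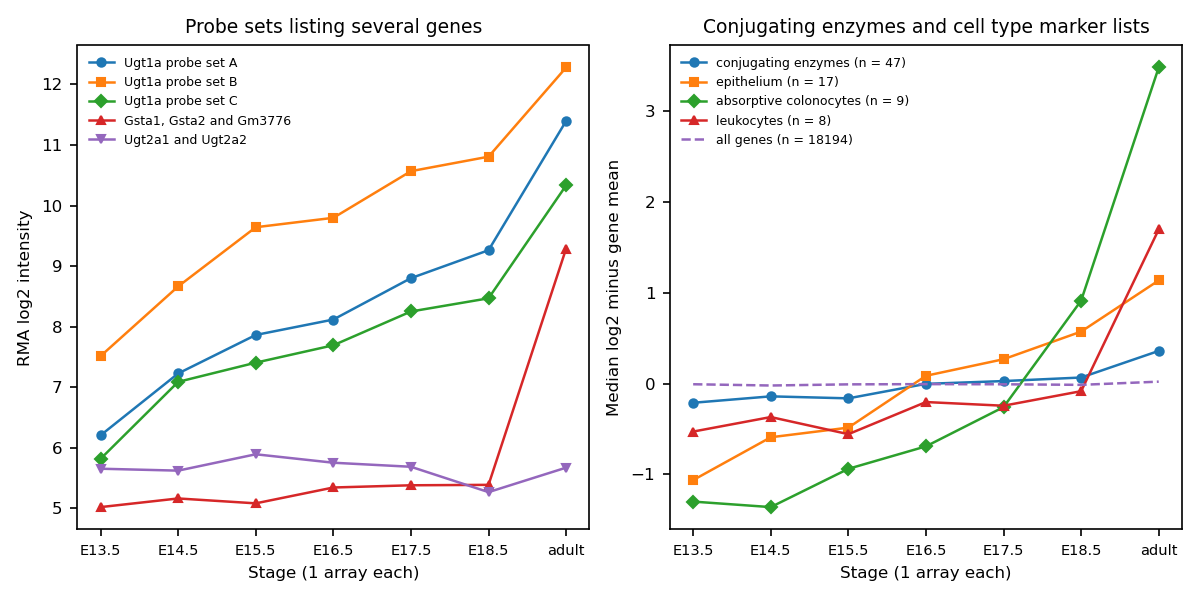
Left, RMA log2 intensity against stage for the probe sets that list several genes, with 3 for Ugt1a genes (A, 1424783_a_at; B, 1426260_a_at; C, 1426261_s_at), 1 for Gsta1, Gsta2 and Gm3776 and 1 for Ugt2a1 and Ugt2a2. Right, median over genes of the log2 value minus the gene mean for the 47 conjugating enzymes, 17 epithelial, 9 colonocyte and 8 leukocyte genes and all 18194 genes, against stage (1 array each); the colonocyte median is 3.48 and that of the enzymes 0.36 in the adult.

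Microsomal glutathione transferases all rose. Mgst2, which can also make leukotriene C4, had 6.73, 7.92, 8.52, 9.52, 10.19, 10.41 and 11.88 and was higher with each later stage. It was 12.8-fold higher at E18.5 than at E13.5, with a slope of 0.75 per day (standard error 0.05, adjusted p = 0.00081), the smallest adjusted p of a slope among the 47 genes. Its adult difference of 1.13 passed (standard error 0.28, adjusted p = 0.034) but not without E14.5, E17.5 or E18.5 (adjusted p = 0.066, 0.065 and 0.068). Mgst3 had 5.91, 6.25, 6.40, 6.47, 6.90, 6.59 and 7.59 (slope 0.15, standard error 0.04, adjusted p = 0.029). This is the median of 1448300_at, which had 7.22, 7.75, 7.93, 8.07, 8.61, 8.59 and 10.20 and rose (slope 0.27, adjusted p = 0.0043; adult difference 1.49, adjusted p = 0.002), and of 1450563_at, which stayed between 4.59 and 5.20 and did not pass. Mgst1, the abundant form of liver microsomes, had a slope of 0.14 (standard error 0.03, adjusted p = 0.026), and its probe set 1415897_a_at had 9.49, 10.11, 10.37, 10.52, 10.60, 10.70 and 11.01, whereas the other stayed between 4.92 and 5.43. The slope calls of Mgst1 and Mgst3 did not survive the loss of E13.5, E14.5, E16.5 or E17.5.

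Among the glutathione transferases counted as cytosolic, the mu, omega, pi and theta classes held the 8 genes that rose. The alpha, kappa and zeta classes, with only 3, 1 and 1 genes, held none, which is near the share of all genes that rose (9.12%). Gstm3, of the mu class, had 5.24, 5.59, 6.37, 6.53, 6.74, 7.05 and 8.21, higher with each stage (slope 0.36, standard error 0.04, adjusted p = 0.0022), with an adult difference of 1.06 (standard error 0.20, adjusted p = 0.012, or 0.058 without E18.5). This course came from probe set 1427474_s_at, at 6.09, 6.91, 8.16, 8.77, 9.08, 9.57 and 11.31 (slope 0.70, adjusted p = 0.0025), whereas 1427473_at stayed between 4.27 and 5.12 and did not pass. By the naming of the array maker, a probe set with s or x in its suffix holds probes that also match related transcripts, and how much of this signal is from Gstm3 was not tested. The 7 mu genes lie in a run on chromosome 3 in the order Gstm5, Gstm7, Gstm6, Gstm3, Gstm2, Gstm1 and Gstm4. For Gstm1, 3 of 4 probe sets rose, against 6.02% of all probe sets. The rising ones were 1416416_x_at and 1425627_x_at, which bear an x, and 1448330_at, whereas 1425626_at had a slope of 0.01 and did not pass. Gstm1 had 7.61, 7.81, 7.79, 8.51, 8.29, 8.44 and 9.44 (slope 0.18, adjusted p = 0.025) and Gstm2 had 8.45, 8.60, 8.41, 9.10, 9.04, 9.27 and 9.73 (slope 0.17, adjusted p = 0.023). In both genes the arrays up to E15.5 lay below those from E16.5 on, and both calls were lost without E13.5, E14.5, E17.5 or E18.5. Gstm7 had probe sets of opposite sign, with slopes of −0.17 for 1419072_at, which fell (adjusted p = 0.035, as did 8.69% of all probe sets), and 0.02 for 1425946_at. Gstm4, Gstm5 and Gstm6 had ranges of 0.72, 0.72 and 0.65 and passed neither test.

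Gstp3 was highest on the E18.5 array. This pi-class gene had 5.25, 5.08, 5.34, 5.55, 5.90, 7.23 and 5.92, with the E18.5 array 1.32 above E17.5 and 1.31 above the adult. It was 3.93-fold higher at E18.5 than at E13.5 and its slope of 0.36 passed (standard error 0.09, adjusted p = 0.029), though not without E18.5 (slope 0.18, adjusted p = 0.068), E17.5 (adjusted p = 0.056) or E14.5 (adjusted p = 0.1). Gstp1, the pi-class enzyme found in most epithelia, had 10.81, 10.95, 10.68, 11.13, 11.31, 11.38 and 11.91 (slope 0.12, standard error 0.03, adjusted p = 0.049), a call lost in 7 of 11 other settings. Gsto1, an omega-class enzyme with thioltransferase and dehydroascorbate reductase activity, had 9.71, 10.08, 10.19, 10.54, 10.53, 10.72 and 11.71. It rose with a slope of 0.19 (standard error 0.03, adjusted p = 0.0041), and its adult difference of 0.94 had an adjusted p of 0.0038 but was under the minimum size. By probe set the adult difference of Gsto1 was 1.13 for 1416531_at and 0.74 for 1456036_x_at. Its neighbour Gsto2 stayed between 4.40 and 4.92 and did not pass.

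Of the 4 theta genes, which lie side by side on chromosome 10, Gstt1 and Gstt3 were higher in the adult. Gstt1, which conjugates small halogenated compounds, had 7.89, 7.13, 7.11, 7.04, 7.50, 7.58 and 10.15, with no called slope (−0.01, adjusted p = 0.93) and an adult difference of 2.81 (standard error 0.36, adjusted p = 0.0028). The adult value was 5.93 times that of E18.5. Gstt3 had 6.37, 6.66, 6.40, 6.61, 6.90, 7.04 and 8.38, an adult difference of 1.41 (standard error 0.17, adjusted p = 0.002) and a slope of 0.12 (adjusted p = 0.043), a slope call lost in 5 of 11 other settings. Gstt2 had 6.93, 7.34, 7.31, 7.51, 7.76, 7.84 and 7.66 and rose (slope 0.17, standard error 0.02, adjusted p = 0.005) without a called adult difference (−0.22, adjusted p = 0.31). Gstt4 had a range of 0.27.

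Gsta4, the alpha-class enzyme that removes the lipid peroxidation product hydroxynonenal, had 9.87, 9.91, 9.24, 9.95, 9.56, 9.31 and 10.54. The adult value was the highest and the embryonic ones had no order in time, and the adult difference of 1.12 passed narrowly (standard error 0.30, adjusted p = 0.042) and was lost without E13.5, E14.5, E17.5 or E18.5 (adjusted p up to 0.15). Gsta3 had 6.50, 7.08, 6.91, 7.07, 6.97, 6.82 and 7.94, and its adult difference of 0.95 was just under the minimum size (adjusted p = 0.03). By probe set this difference was 1.09 for 1423436_at and 0.81 for 1423437_at. Gstk1, of mitochondria and peroxisomes, had 8.94, 8.94, 7.92, 8.78, 8.94, 9.13 and 10.14, and its adult difference of 1.24 did not pass against the spread that the low E15.5 array gave it (standard error 0.45, adjusted p = 0.11). Gstz1, an enzyme of tyrosine breakdown, stayed between 6.27 and 7.27, and Gsta2 between 6.14 and 6.96 by the probe set that lists it alone. The probe set that lists Gsta1, Gsta2 and Gm3776 together had 5.02, 5.16, 5.08, 5.34, 5.38, 5.39 and 9.29. It is named after its values were seen, since Gm3776 lies outside the naming rule, and its adult difference was 3.86 (standard error 0.11, adjusted p = 1.7e-05).

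**Figure D4:**
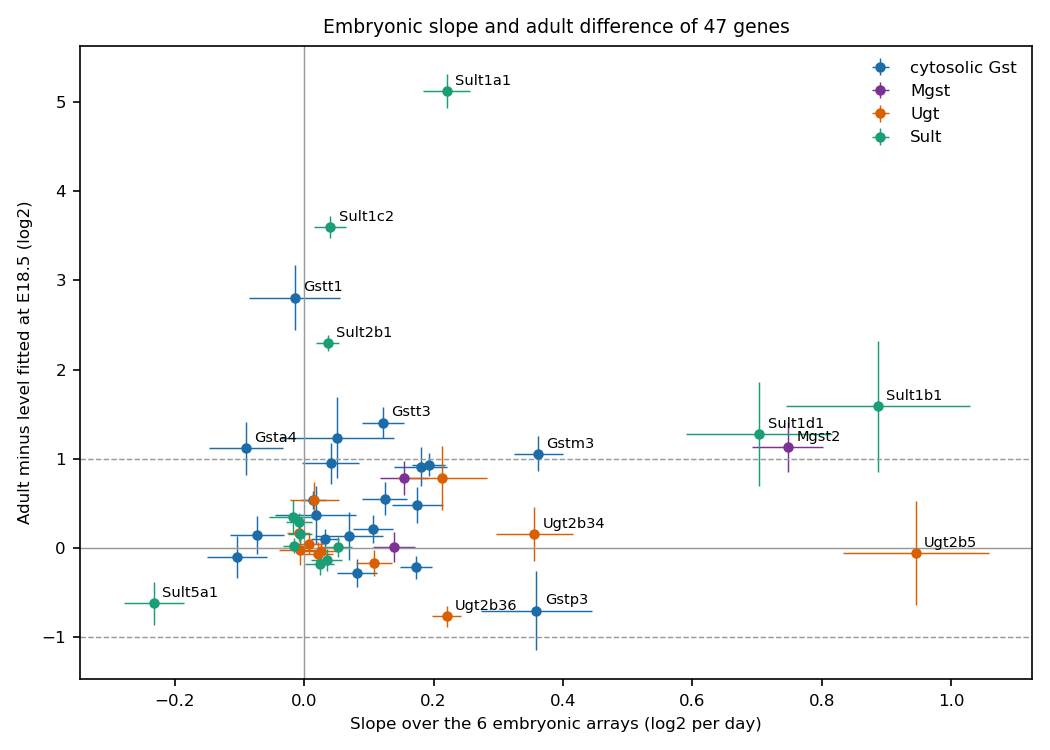
Slope over the 6 embryonic arrays (horizontal axis, log2 per day) against the adult value minus the level fitted at E18.5 (vertical axis, log2) for the 47 genes, coloured by class. Bars are standard errors from limma and dashed lines mark a difference of 1 in either direction; Sult1a1 lies at 5.12 on the vertical axis, and Ugt2b5, Sult1b1, Mgst2 and Sult1d1 lie beyond 0.7 on the horizontal axis.

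The largest steps between neighbouring arrays fell on different days for different genes. A step of at least 1 on the log2 scale was seen at E14.5 over E13.5 in 2 genes, Sult1d1 and Mgst2, against 0.324% of all genes. At E15.5 over E14.5 no gene was higher by that much (0.0934% of all genes) and Gstk1 was lower (0.308% of all genes). At E16.5 over E15.5 it was seen in Ugt2b5 and Sult1b1 (1.01% of all genes), and in the same 2 genes at E17.5 over E16.5 (0.649% of all genes). At E18.5 over E17.5 it was seen in Gstp3 (0.368% of all genes). In the adult over E18.5 it was seen in 14 genes, against 4.33% of all genes, and Gstp3 was lower, against 3.84% of all genes. These are differences of single arrays with no test. On the E15.5 array 6 of the 47 genes lay at least 0.5 below the mean of E14.5 and E16.5, against 3.89% of all genes, a description chosen after the data were seen. These were Ugt2b5 (−1.11), Gstk1 (−0.94), Sult1b1 (−0.84), Gsta4 (−0.69), Gstz1 (−0.63) and Gstm5 (−0.54). In Ugt2b5 and Sult1b1 this came from the step up after E15.5, and in Gstk1, Gsta4, Gstz1 and Gstm5 from an E15.5 value below both neighbours.

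For sulfation, 5 of 10 measured genes of PAPS supply and sulfate handling rose, 4 were higher in the adult and none fell or was lower. Over all genes 9.12% rose, 10.4% fell, 4.23% were higher and 3.26% lower in the adult. Papss2, which makes PAPS, had 5.27, 5.64, 5.97, 6.46, 6.93, 7.22 and 8.61 and rose (slope 0.40, standard error 0.02), and its adult value was also higher (difference 1.36). Papss1, the second PAPS synthase, stayed between 8.31 and 8.76 and did not pass. Slc26a2, a sulfate transporter, had 5.46, 5.63, 5.66, 5.63, 6.19, 7.23 and 9.01 and passed both tests. So did Slc26a3, the chloride and bicarbonate exchanger of colonocytes, at 9.62 in the adult, against 4.33 to 4.85 on the embryonic arrays, a gene that is also on the colonocyte list. Ethe1, of mitochondrial sulfide breakdown, had 6.13, 6.50, 6.44, 6.66, 7.28, 7.76 and 10.46 and also passed both tests.

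For glucuronidation, 2 of 7 measured genes of UDP-glucuronic acid supply and glucuronide cleavage rose and 3 were higher in the adult. Over all genes these shares were 9.12% and 4.23%. Ugdh, which makes UDP-glucuronic acid, had 10.24, 10.48, 10.74, 10.51, 10.99, 10.97 and 12.20 and passed both tests (slope 0.14, adult difference 1.18), as did Cryl1, of the glucuronate pathway, at 7.01, 7.09, 7.28, 7.35, 7.53, 7.80 and 8.82. Slc35d1, which carries UDP-glucuronic acid into the endoplasmic reticulum, passed only in the adult (6.47 in the adult, against 5.31 to 5.63 on the embryonic arrays). For glutathione, 4 of 12 genes of synthesis and recycling rose and 2 were higher in the adult. Gss, glutathione synthetase, had 5.89, 6.25, 6.53, 7.35, 7.52, 8.05 and 8.60 and rose (slope 0.44), as did Gpx2, the glutathione peroxidase of gut epithelium, at 6.41, 6.88, 7.19, 8.33, 8.65, 8.91 and 9.93 (slope 0.54), and Chac1, which cleaves glutathione, with a slope of 0.24. Gclc and Gclm, the subunits of the rate-limiting enzyme of glutathione synthesis, were instead called in the adult alone, Gclc at 7.59 in the adult, against 6.31 to 6.46 before birth, and Gclm at 7.24, against 5.83 to 6.17.

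Of 11 transporter genes listed for the handling of conjugates and bile acids, 5 rose and 2 were higher in the adult. Over all genes these shares were 9.12% and 4.23%. Abcb1a, the P-glycoprotein of the luminal membrane, had 4.89, 5.67, 5.85, 6.29, 7.01, 7.63 and 11.81 and passed both tests. Abcc3, which exports glucuronides across the basolateral membrane, had 5.90, 5.94, 6.02, 6.25, 6.87, 6.86 and 9.75 and also passed both. Abcc2, the exporter of the luminal side, had 5.83, 5.43, 5.92, 5.98, 7.43, 8.33 and 5.98, so that its adult value lay with those before E17.5, and its slope passed (0.53) but its adult difference of −1.83 did not (adjusted p = 0.08). Slc51b, a subunit of the basolateral steroid and bile acid transporter, had 6.00, 5.97, 6.15, 6.95, 9.13, 9.74 and 10.98 and rose (slope 0.83). Of 16 xenobiotic sensors and Nrf2 targets 5 rose and 3 were higher in the adult. Nr1h4, the bile acid receptor, had 7.11, 7.46, 7.58, 8.33, 9.30, 9.52 and 10.23 and rose (slope 0.52), Pparg passed both tests at 6.15, 6.75, 6.79, 7.36, 7.90, 8.33 and 10.04, and Vdr, the vitamin D receptor, passed both at 9.24 in the adult, against 5.02 to 5.89 before birth. Nqo1, a target of Nrf2, rose (slope 0.38), and Nfe2l2, which encodes Nrf2, was at 7.93 in the adult, against 5.90 to 6.51 before birth, and passed there alone. The other Nrf2 targets on the list, Hmox1 (slope −0.02), Txnrd1 (slope −0.02) and Srxn1 (slope 0.29, adjusted p = 0.052), passed neither test. Of 17 other conjugating and phase 1 enzymes 3 rose and 10 were higher in the adult, among them the carboxylesterase genes Ces2a (9.88 in the adult, against 4.85 to 5.37 before birth) and Ces1d (7.93, against 4.10 to 4.26) and the epoxide hydrolase gene Ephx1 (8.60, against 5.01 to 5.54). Adh1, an alcohol dehydrogenase, had 6.16, 6.54, 6.81, 7.76, 8.40, 9.32 and 11.89 and passed both tests. In none of these 6 lists did a gene fall or lie lower in the adult by the tests, against 10.4% and 3.26% of all genes. The lists were chosen with earlier results of these data known.

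Leaving out an array changed many calls. Of the 19 slope calls, 6 (Gstm3, Gsto1, Gstt2, Mgst2, Sult1d1 and Ugt2b5) passed in every setting tried, and of the 8 adult calls 5 did (Gstt1, Gstt3, Sult1a1, Sult1c2 and Sult2b1). The number of genes that rose was 11 without E13.5, 11 without E14.5, 10 without either E17.5 or E18.5, and the number higher in the adult was 5 without E18.5.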

How the data were processed

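Colon from 7 stages was measured on 7 arrays. The authors deposited RMA values, log2 intensities brought to one common distribution over the arrays (affy 1.22.1 in R 2.9.2, per the submitters' processing notes). With so few arrays, precision is limited throughout. The median of all genes lay between 6.07 and 6.17 on the 7 arrays.

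Of 45101 probe sets, 34958 list 1 gene in the platform annotation, 932 list several and 9211 list none. Taking each gene's median probe set value gave 18194 genes, and 61 probe sets gave the 47 conjugating enzymes, 12 of which had several. Identifiers were matched to RefSeq of GRCm38.p6 (18033 of 18195, and all 47 enzymes). A line through embryonic day plus a term for the adult array was fitted with lmFit and eBayes of limma 3.58.1 (R 4.3.3), and p-values were adjusted by Benjamini-Hochberg over all genes. The p-values measure the spread around the embryonic line only. The fit was tested on simulated data. Values at all 7 stages were given for genes that passed a test, up to 10 by slope and 10 by adult difference in each direction, and the 2 of each class with the largest range, and of each pathway list for the 3 with the largest slope and adult difference among those that passed. Genes named beyond this rule were chosen after their values were seen. The enzymes and all lists were chosen with earlier results of these data known. Alternatives were the highest probe set, leaving out the dimmest 25% of genes or each embryonic array, median centring, trend and robust eBayes, another adult reference and a slope over all 7 arrays. Python 3.11.15 was used for tables and promoter windows.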

Additional observations from a re-analysis of the deposited data

How the results depend on the processing

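Of the 47 genes, 18 rose, 1 fell, 8 were higher and 0 lower in the adult, and over the arrays left out in turn these counts were 10 to 20, 0 to 2, 5 to 9 and 0. The count of falling genes was 2 with the highest probe set, which added Gstm7. Rising genes numbered 17 with the highest probe set, 18 without the dimmest 25% of genes (32 of the 47 tested), 15 with centred arrays and 16 over the order of 7 arrays, and genes higher in the adult numbered 10, 7 and 8 in the first 3 of these settings and 10 against the level midway between E17.5 and E18.5. Over all genes, 1660 rose, 1884 fell and 593 were lower in the adult. The lower count was 1004 with the highest probe set, the rising count 1023, 965 and 812 when E14.5, E17.5 or E18.5 was left out, and the falling count 856, 1029, 919 and 1074 when E13.5, E14.5, E17.5 or E18.5 was. The median change of the Mgst genes was 1.37 at E18.5 over E13.5 and 1.47 in the adult over E18.5 with the highest probe set. The cause of these changes was not tested. No called slope or adult difference changed sign in the settings it was run in, but some that were not called did, such as the Ugt2b34 adult difference, which was −0.17 without E18.5. No paired analysis was possible because each stage had 1 array. Without replicates the error rests on a straight line, so a gene that steps up, such as Sult1b1, has a large standard error, and a low E15.5 value has the same effect.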
